A study of Homo sapiens with 6 samples.

Results

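The EGF receptor (EGFR) family and its ligands were followed at the mRNA level in MCF10A, an established nonmalignant human breast epithelial cell line, after knockdown of DAB2IP, a Ras GTPase-activating protein. The set held 10 genes chosen by name: the receptors EGFR, ERBB2 and ERBB3, the ligands AREG, EREG, HBEGF, TGFA, BTC and EPGN, and ERRFI1, an inhibitor of the receptors. All 10 were found among the 58735 genes of the count table, and all 10 were among the 15430 genes with enough counts to be tested. The 3 siControl libraries came from cells given a nontargeting siRNA pool, and the 3 siDAB2IP libraries from cells given siRNA against DAB2IP. Every library was made from total RNA taken 48 hours after transfection. Both groups grew in DMEM/F12 with 5% horse serum, insulin (10 µg/mL), cholera toxin (100 ng/mL), hydrocortisone (0.5 µg/mL), antibiotics and 20 ng/mL of EGF itself. A ligand of the receptor was thus supplied to both groups. Knockdown rested on 1 siRNA product, so effects of DAB2IP loss and of unintended siRNA targets cannot be told apart.

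EGFR, ERBB2 and ERBB3 are related transmembrane proteins that pair on ligand binding and pass the signal to the RAS-ERK and PI3K-AKT pathways. AREG, EREG, HBEGF, TGFA, BTC and EPGN are made as membrane-anchored precursors and released by metalloproteases, after which they can bind EGFR on the same or a neighboring cell. ERRFI1 (also MIG6) binds the active EGFR kinase domain and restrains it. Breast epithelial cells use this loop for growth, and amphiregulin, the product of AREG, is known for its part in mammary duct growth. DAB2IP acts on RAS, below the receptors.

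Each library held 16353783 to 21916062 counts. DAB2IP mRNA was 103, 94.2 and 77.4 CPM (counts scaled to a common library size, with TMM factors) in siControl replicates 1 to 3 and 27.5, 25.6 and 22.4 in siDAB2IP, a log2 fold change of −1.86 (SE 0.13, adjusted p = 9.71e-05, edgeR quasi-likelihood test). Of the mammary epithelial markers fixed for the check, 10 of 10 were tested, and their summed level ran from 10501 to 12632 CPM in siControl and from 7573 to 9208 CPM in siDAB2IP. KRT5, KRT14, KRT6A and KRT17 fell, LAMB3 rose, and the other 5 did not pass. Of 6 luminal hormone receptor markers 3 were tested, of which FOXA1 rose and PRLR fell, PGR and TFF1 had no count in any library, and the sums were 25.1 to 34.4 and 23.8 to 29.4 CPM. Of 6 fibroblast markers 3 were tested, COL1A1 alone passed and rose, and the sums were 163 to 293 and 146 to 206 CPM, most of it DCN. Of 7 leukocyte and endothelial markers 3 were tested, none passed, CD3E had no count, and the sums were 11.4 to 16.03 and 7.65 to 11.4 CPM. Whether the lower sum of the mammary epithelial markers has a part in the values below was not tested, and in bulk RNA fewer cells that make a transcript and less of it per cell cannot be told apart.

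In the family as a whole, 1 member rose (TGFA), 1 fell (ERRFI1) and 8 did not pass the test (adjusted p under 0.05, edgeR quasi-likelihood test over all 15430 genes). Of all genes tested, 6.55% rose and 7.65% fell. At an unadjusted p under 0.05 1 member was higher and 3 were lower, against 14.5% of all genes tested that were higher and 15.5% that were lower. The median log2 fold change of the 10 members was −0.02, against 0.01 over all genes tested. The siControl and siDAB2IP values did not overlap for 2 of 10 members, EREG and ERRFI1, against 35.9% of all genes tested.

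**Figure D1:**
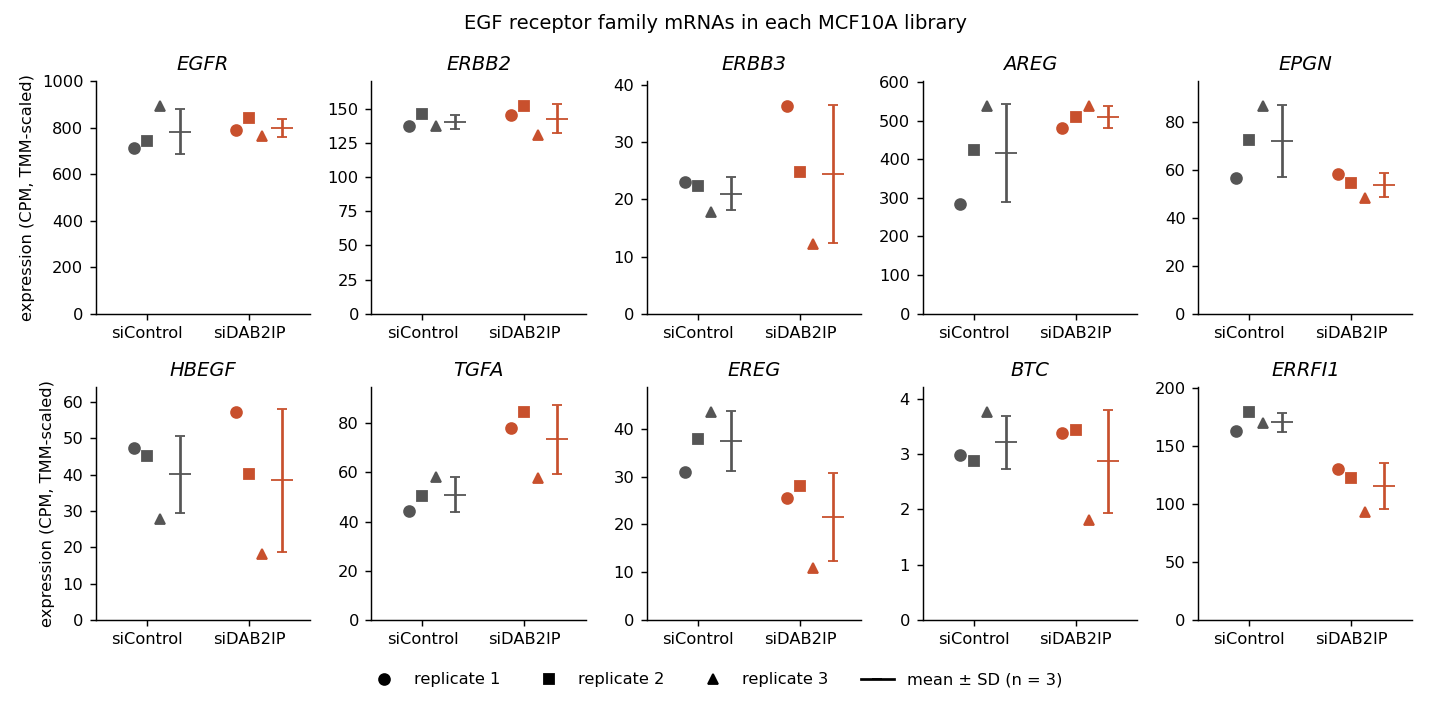
Expression of each of the 10 members (y axis, TMM-scaled CPM from 0, a separate scale per gene) in the 3 siControl and 3 siDAB2IP libraries, with marker shapes for replicate numbers and bars for mean ± SD (n = 3). ERRFI1 is lower in all siDAB2IP libraries (93.3 to 130 CPM against 163 to 179), whereas the EGFR values of both groups interleave between 712 and 893 CPM.

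EGFR, the receptor that all 6 ligands bind, was at 712, 741 and 893 CPM in siControl and at 790, 842 and 766 CPM in siDAB2IP. The siDAB2IP values all lay inside the siControl range. The means were 782 ± 97.5 and 799 ± 39.2 CPM (SD, n = 3), and the log2 fold change was 0.03 with a 95% interval of −0.24 to 0.30 (adjusted p = 0.898, edgeR). The gene lies at chr7:55019021-55211628 on the + strand (GRCh38).

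ERBB2, which has no known ligand and serves as the preferred partner of the other receptors, was at 137, 146 and 138 CPM in siControl and 145, 152 and 131 CPM in siDAB2IP. Again the groups overlapped, and the log2 fold change was 0.02 (95% interval −0.19 to 0.24, adjusted p = 0.904, edgeR). ERBB2 (chr17:39687914-39730426, + strand) overlaps PGAP3 and MIEN1 on the other strand, and the strand setting of the counting is not given in the sources used here, so reads in the shared ends are uncertain. PGAP3 and MIEN1 had 2495 and 1411 counts over the 6 libraries.

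ERBB3, whose kinase is nearly inactive and which signals through its partner to PI3K, was at 23.0, 22.3 and 17.7 CPM in siControl and spread from 36.4 and 24.9 down to 12.1 CPM in siDAB2IP. Replicates 1 and 2 of siDAB2IP were above every siControl library and replicate 3 was below all of them. The coefficient of variation was 13.6% in siControl and 49.6% in siDAB2IP, and the log2 fold change was 0.22 (95% interval −0.47 to 0.91, adjusted p = 0.685, edgeR). Without siDAB2IP replicate 3 the log2 fold change was 0.54 (adjusted p = 0.0453). No receptor passed with DESeq2 either, and none had an unadjusted p under 0.05 in edgeR.

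Across the receptors, levels compared per gene length (FPKM) were in the order EGFR, ERBB2 and ERBB3 in both groups, and neighbors in this order did not overlap. EGFR was at 61.9 ± 7.66 FPKM in siControl and 63.1 ± 3.09 in siDAB2IP. ERBB2 was at 13.5 ± 0.532 and 13.7 ± 1.04 FPKM, and ERBB3 at 2.30 ± 0.315 and 2.68 ± 1.33 FPKM. EGFR made up 79.5% of the summed receptor FPKM in both groups. The fourth receptor gene, ERBB4, had 2 counts over all 6 libraries and was not tested.

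Among the ligands, 4 of 6 genes lie together on chromosome 4 within 486.2 kb, in the order EPGN (74308473-74315307, + strand), EREG (74365143-74388751, +), AREG (74445134-74455009, +) and BTC (74744759-74794686, −). The other genes the table lists within this span, AC021180.1 and AC239584.1, had 0 and 4 counts. The bases just before the first annotated exon base of these 4 neighbors are printed because the genes sit side by side and hold 4 of the 6 ligands, none of which passed the test. They were read from RefSeq promoter windows of GRCh38.p14, 5′ to 3′ on each gene's own strand. Capitals mark matches to a cyclic AMP response element (TGACGTCA) or a TATA box (TATAAA).
EPGN, chr4:74308373-74308472 (+ strand): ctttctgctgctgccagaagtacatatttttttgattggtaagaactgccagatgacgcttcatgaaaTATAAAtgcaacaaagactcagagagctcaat
EREG, chr4:74365043-74365142 (+ strand): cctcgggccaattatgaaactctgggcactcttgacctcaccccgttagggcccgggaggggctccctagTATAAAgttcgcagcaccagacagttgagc
AREG, chr4:74445034-74445133 (+ strand): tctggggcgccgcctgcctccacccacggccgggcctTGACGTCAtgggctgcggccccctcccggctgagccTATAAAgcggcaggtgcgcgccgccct
BTC, chr4:74794687-74794773 (- strand): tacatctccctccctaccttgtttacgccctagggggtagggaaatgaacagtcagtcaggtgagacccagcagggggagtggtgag
EPGN, EREG and AREG each held TATAAA at 24 to 32 bases before their RefSeq start. BTC held none, and 11.53% of the 35116 windows held this motif. The cyclic AMP response element of AREG lay 65 to 58 bases before the start, in a motif class found in 1.848% of the windows. Searched on both strands, GGAATG (TEAD, 14.033% of windows) matched once farther upstream of EREG, and TGANTCA (AP-1, 7.709%), the kappa B consensus (5.909%) and the CArG box (1.293%) matched nowhere in the windows of these 4 genes. A match describes letters only and shows no binding.

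AREG was the most abundant member on the per-length scale, at 250 ± 76.5 FPKM in siControl and 306 ± 16.3 in siDAB2IP (SD, n = 3). By mean FPKM it ranked 86th of 29567 genes with a count in siControl and 63rd in siDAB2IP. In CPM it was at 284, 425 and 538 in siControl and at 482, 509 and 538 in siDAB2IP. The siDAB2IP libraries sat in the upper part of the siControl range, so the groups overlapped, and the log2 fold change was 0.29 (SE 0.19, 95% interval −0.14 to 0.73, adjusted p = 0.348, edgeR). The siControl libraries alone differed by more than the group means did. The log2 fold change was 0.06 without siControl replicate 1 and 0.51 without siControl replicate 3.

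EREG, which encodes epiregulin, a ligand of EGFR and ERBB4, was at 31.0, 37.9 and 43.6 CPM in siControl and at 25.5, 28.1 and 10.96 CPM in siDAB2IP. Every siDAB2IP library was below every siControl library, replicate 3 by the widest margin. The log2 fold change was −0.80 (SE 0.28, 95% interval −1.43 to −0.17), which missed the threshold (adjusted p = 0.0895, edgeR). A two-sided exact permutation test gave p = 0.1, and with groups of 3 no lower value can arise. EREG passed with DESeq2 (adjusted p = 0.0189), and without siDAB2IP replicate 3 the log2 fold change was −0.48 (adjusted p = 0.0378, edgeR).

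EPGN, which encodes epigen, a low-affinity EGFR ligand, was at 56.6, 72.7 and 86.8 CPM in siControl and at 58.3, 54.7 and 48.2 CPM in siDAB2IP. The groups overlapped through siControl replicate 1 alone. Its log2 fold change was −0.42 (SE 0.15, 95% interval −0.76 to −0.09, adjusted p = 0.0874, edgeR), and it was −0.59 without siControl replicate 1 (adjusted p = 0.0303). BTC, which encodes betacellulin, a ligand of EGFR and ERBB4, was the least abundant member at 1.13 and 1.01 FPKM, with 48, 62 and 64 counts in siControl and 60, 62 and 31 in siDAB2IP (log2 fold change −0.16, 95% interval −0.79 to 0.48, adjusted p = 0.768, edgeR).

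TGFA, on chromosome 2, encodes transforming growth factor α, a ligand that lets EGFR return to the cell surface after uptake. It was at 44.2, 50.5 and 58.2 CPM in siControl and at 78.1, 84.6 and 57.7 CPM in siDAB2IP. Replicates 1 and 2 of siDAB2IP were above every siControl library, whereas replicate 3 was level with the highest siControl library. TGFA rose 1.44-fold, with a log2 fold change of 0.53 (SE 0.15, 95% interval 0.19 to 0.87, adjusted p = 0.0454, edgeR). The two-sided exact permutation test gave p = 0.2. This call lay close to the threshold and depended on the libraries used: the adjusted p was 0.00267 without siDAB2IP replicate 3, and between 0.0590 and 0.156 when any one of the other 5 libraries was left out (log2 fold change 0.41 to 0.61).

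The stretch of 61 bases at the far end of the TGFA window (RefSeq, GRCh38.p14) is printed because TGFA was the member that rose and because this stretch holds its one motif match, a kappa B consensus in capitals, 219 to 210 bases before the RefSeq start.
TGFA, chr2:70554016-70554076 (- strand): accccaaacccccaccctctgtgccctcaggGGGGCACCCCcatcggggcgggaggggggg
The gene spans chr2:70447280-70554193 on the − strand, so this stretch lies inside its annotated span. Of all windows, 5.909% held the kappa B consensus. A second RefSeq start of TGFA held none of the motifs.

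HBEGF, which encodes a heparin-binding ligand of EGFR and ERBB4, was at 47.2, 45.2 and 27.9 CPM in siControl and at 57.3, 40.2 and 18.0 CPM in siDAB2IP. The siDAB2IP values reached both above and below the siControl range. Replicate 3 was the lowest of each group, and the log2 fold change was −0.06 (95% interval −0.82 to 0.70, adjusted p = 0.931, edgeR). The gene lies at chr5:140332843-140346631 on the − strand.

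**Figure D2:**
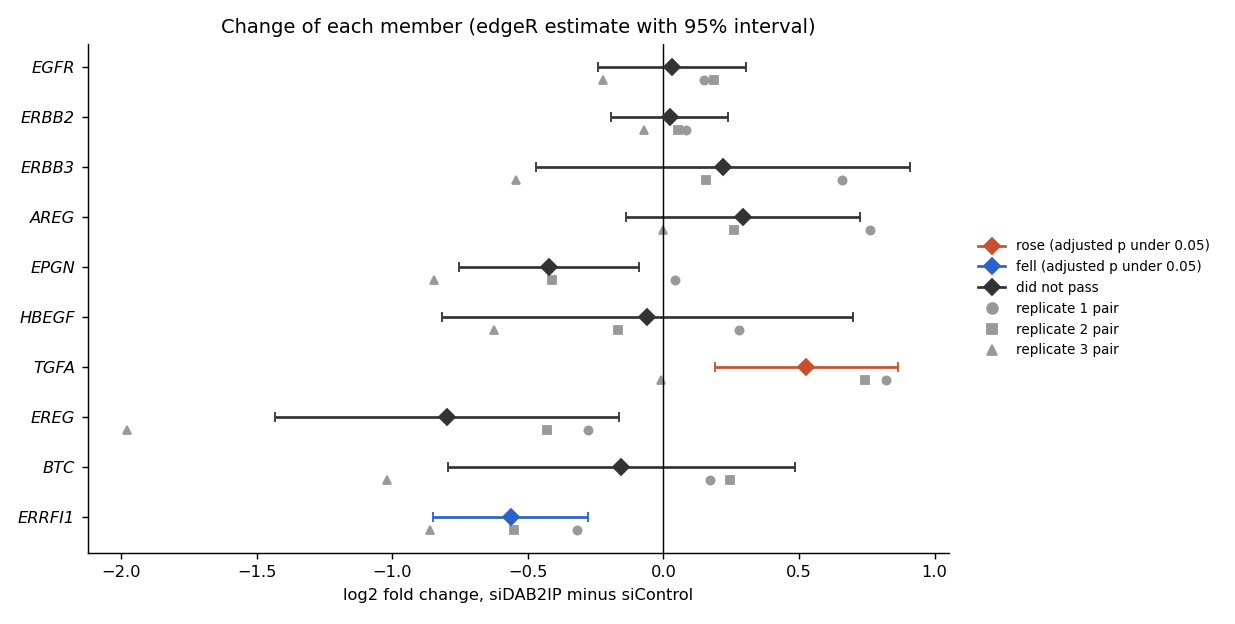
Log2 fold change of each member, siDAB2IP minus siControl (x axis), as the edgeR estimate with its 95% interval (diamonds and bars, n = 3 per group) and as the difference within each pair of equal replicate number (gray symbols). TGFA (0.53) rose and ERRFI1 (−0.56) fell, and EREG (−0.80) had the lowest estimate with its replicate 3 pair at −1.98 and an interval that reached −0.17.

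ERRFI1, the inhibitor, was at 163, 179 and 169 CPM in siControl and at 130, 122 and 93.3 CPM in siDAB2IP. All siDAB2IP libraries were below all siControl libraries. Its level fell by 0.56 on the log2 scale, to 0.677 of the siControl level (SE 0.13, 95% interval −0.85 to −0.28, adjusted p = 0.0189, edgeR), and the two-sided exact permutation test gave p = 0.1. The decrease was seen in 3 of 3 pairs of equal replicate number, at −0.32, −0.55 and −0.86. Without siControl replicate 2 the log2 fold change was −0.54 and the adjusted p 0.0730, and without siDAB2IP replicate 3 they were −0.43 and 0.00938.

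ERRFI1 (chr1:8004404-8026308, − strand) overlaps the antisense gene AL034417.4, which had 370 counts in all, at its far end. The 100 bases before its first exon base (RefSeq, GRCh38.p14) are printed because it was the member that fell. They held none of the motifs searched, so no letter is capitalized.
ERRFI1, chr1:8026309-8026408 (- strand): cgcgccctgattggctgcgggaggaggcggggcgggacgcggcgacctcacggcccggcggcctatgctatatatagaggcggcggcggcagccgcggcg
A window was found for 9 of the 10 members. The windows of HBEGF and BTC and of the first EGFR start also held none of the motifs. ERBB2 held an AP-1 match, and the second EGFR start, inside the gene, held AP-1, TEAD and TATA matches.

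Set side by side on the per-length scale, siControl levels ran from AREG (250 FPKM) through EGFR (61.9), ERRFI1 (40.4), EPGN (39.4), ERBB2 (13.5), HBEGF (13.2), TGFA (10.2), EREG (6.50) and ERBB3 (2.30) to BTC (1.13). Ranges over the 3 libraries overlapped between ERRFI1 and EPGN, ERBB2 and HBEGF, and HBEGF and TGFA, and not between other neighbors. In siDAB2IP, EPGN (29.3 FPKM) stood beside ERRFI1 (27.2), TGFA (14.6) beside ERBB2 (13.7) and HBEGF (12.6), and EREG (3.73) beside ERBB3 (2.68), each with overlapping ranges. AREG (306) and EGFR (63.1) stood clear at the top of both orders and BTC (1.01) at the bottom.

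The FPKM of the 6 ligands summed to 232, 329 and 400 in siControl and to 362, 371 and 369 in siDAB2IP. The siDAB2IP sums were close to each other and inside the siControl range. AREG made up 73.5%, 77.96% and 80.8% of the sum in siControl and 80.1%, 82.3% and 87.5% in siDAB2IP. EPGN held 13.3%, 12.1% and 11.8% of it in siControl and 8.81%, 8.02% and 7.12% in siDAB2IP, with no overlap. EREG held 1.88% to 2.31% in siControl and 0.514% to 1.31% in siDAB2IP, also with no overlap. The shares of HBEGF, TGFA and BTC overlapped. A share also moves with AREG, which made up most of the sum, and the CPM of EPGN itself overlapped between the groups. These sums and shares are descriptions and were not tested.

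**Figure D3:**
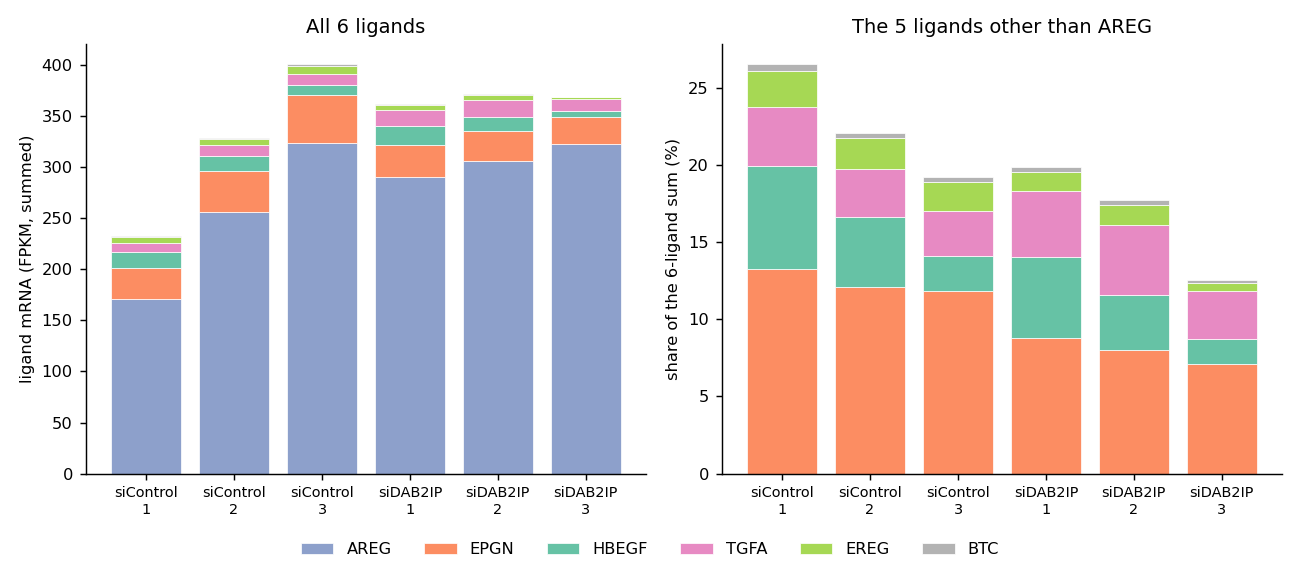
Left, summed FPKM of the 6 ligand mRNAs in each library. Right, the share of that sum (%) held by each of the 5 ligands other than AREG. EPGN holds 11.8% to 13.3% in the siControl libraries and 7.12% to 8.81% in the siDAB2IP libraries, although its CPM overlapped between the groups.

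Ratios within a library were chosen after the values were seen and were not tested. AREG exceeded EPGN 5.54-, 6.43- and 6.83-fold in siControl and 9.10-, 10.3- and 12.3-fold in siDAB2IP on the FPKM scale. For AREG over EREG the ratios were 31.9, 38.9 and 42.9 in siControl and 65.6, 62.8 and 170 in siDAB2IP. EGFR over its inhibitor ERRFI1 stood at 1.46, 1.38 and 1.76 in siControl and at 2.03, 2.31 and 2.74 in siDAB2IP. The ratio of EGFR to ERBB2 overlapped between the groups.

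The libraries were not alike within the groups. siDAB2IP replicate 3 was the lowest of all 6 libraries for 7 of 10 members (ERBB2, ERBB3, EREG, HBEGF, BTC, EPGN and ERRFI1), and siControl replicate 1 was the lowest for the other 3 (EGFR, AREG and TGFA). Without siDAB2IP replicate 3, 2 members rose (TGFA and ERBB3) and 2 fell (EREG and ERRFI1), while 1172 of the genes tested rose and 1352 fell. GEO's labels number the replicates but do not say whether they were separate cultures, so the p-values measure the spread between these libraries, which may be technical.

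Over the 6 libraries, the log2 CPM of TGFA was most like that of FNDC3B (Pearson r = 0.997), NT5E (0.991) and ADAM9 (0.989) among 9428 genes of mean CPM at least 10. NT5E rose (log2 fold change 0.97, adjusted p = 0.0400, edgeR), and FNDC3B and ADAM9 did not pass. ERRFI1 was most like MEGF9 (r = 1.00 after rounding), TMEM87B (0.998) and CD109 (0.997), all of which fell (log2 fold changes −0.82, −0.65 and −0.62). These coefficients are the highest of many over 6 points that share the 2 groups, and they are given as descriptions.

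Of 6 other ligand and receptor genes of the family, 4 were tested, 1 rose and 1 fell. Of all genes tested, 14.2% rose or fell. EGF, the ligand also supplied in the medium, had 4, 4 and 1 counts in siControl and 20, 23 and 24 in siDAB2IP. Pooled by group, 9 against 67 counts gave a rate ratio of 7.67 (95% exact interval 3.81 to 17.5, counting error only). EGF rose in the edgeR test (adjusted p = 0.00514), where its log2 fold change of 2.89 depends on the prior count. It passed the filter on low counts only through the siDAB2IP libraries, where it was high, so this call is no independent support. With at least 10 counts required in every library EGF was left out, and 0 genes of this list rose. NRG2, a neuregulin that binds ERBB3 and ERBB4, was at 10.0, 12.5 and 9.45 CPM in siControl and 5.13, 6.65 and 2.32 CPM in siDAB2IP and fell (log2 fold change −1.18, SE 0.31, adjusted p = 0.0328). That call was lost when any siControl library or siDAB2IP replicate 1 was left out. NRG1 and NRG4 did not pass, and NRG3, with 2 counts, was not tested.

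Of 12 genes that shed the ligand precursors or govern that step, 12 were tested and 0 passed in edgeR, against 14.2% of all genes tested. At an unadjusted p under 0.05, 2 were higher and 3 lower, against 14.5% and 15.5% of all genes tested. DESeq2 called 2 higher and 0 lower, and edgeR with replicate number as a block called 1 higher and 3 lower. ADAM17, the main sheddase of AREG, EREG, HBEGF and TGFA, was at 116 ± 6.86 CPM in siControl and 87.4 ± 23.7 in siDAB2IP (log2 fold change −0.41, adjusted p = 0.146). ADAM10, the main sheddase of BTC, was at 264 ± 17.7 and 268 ± 26.3 CPM (0.02, adjusted p = 0.931). Both were named after their values were seen.

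Of 25 adaptors and effector kinases below the receptors, 1 rose and 4 fell, a median log2 fold change of −0.06. That is a 20% share passing in either direction, and among the 15430 genes the share was 14.2%. Whether these 2 shares differ was not tested. MAP2K1, the kinase that activates ERK, rose by 0.61 (SE 0.14, adjusted p = 0.0198), from 66.7, 59.2 and 54.6 CPM in siControl to 93.9, 107 and 73.9 in siDAB2IP. PIK3R1, the regulatory subunit of PI3K, was at 199, 206 and 231 CPM in siControl and 149, 133 and 121 CPM in siDAB2IP and fell by 0.66 on the log2 scale (SE 0.11, adjusted p = 0.00541). AKT1 (−0.37), STAT3 (−0.39) and BRAF (−0.42) fell too, with adjusted p of 0.0314, 0.0401 and 0.0415. With the replicate block, 2 rose and 5 fell. With 1 library left out, between 0 and 3 rose and between 1 and 4 fell. The count that fell was 1 without siControl replicate 1, siControl replicate 2 or siDAB2IP replicate 1. MAP2K1 did not pass without siControl replicate 2, siControl replicate 3, siDAB2IP replicate 1 or siDAB2IP replicate 2, where 0 of the list rose.

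Of 24 genes that attenuate or route the receptors, 1 rose and 3 fell, a median log2 fold change of −0.05. These were 16.7% of the list, close to the 14.2% of all genes tested that rose or fell. LRIG1, a membrane protein that promotes EGFR breakdown, was at 54.8, 60.1 and 51.2 CPM in siControl and at 36.0, 32.01 and 14.9 CPM in siDAB2IP and fell (log2 fold change −1.001, SE 0.26, adjusted p = 0.0294, edgeR). CBL, the ubiquitin ligase of active EGFR, and PTPN1, a phosphatase that acts on it, fell by 0.53 and 0.47 on the log2 scale (adjusted p = 0.0235 and 0.0168). HGS, which sorts ubiquitinated receptors toward lysosomes, rose by 0.53 (adjusted p = 0.0102). With the replicate block, 2 rose and 4 fell. The count that fell was 0 without siControl replicate 3, 1 without siControl replicate 1 or siDAB2IP replicate 1, and between 2 and 4 without any other library. HGS did not pass without siControl replicate 2, where 0 of the list rose.

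Of 20 genes known to respond to ERK signaling, 6 rose and 2 fell, with a median log2 fold change of 0.28. A call in either direction was thus made for 40% here, where the whole set of 15430 had 14.2%. The CPM values of siControl and siDAB2IP stayed apart for 9 of the 20, and for 35.9% of the whole set. Neither difference was tested. The list was written for this pathway with earlier results known, so its higher share is no independent evidence. EPHA2, a receptor kinase, was at 295, 275 and 284 CPM in siControl and at 589, 675 and 716 CPM in siDAB2IP (log2 fold change 1.21, SE 0.11, adjusted p = 0.000346, edgeR). CCND1 (1.14), a cyclin, DUSP5 (1.05), an ERK phosphatase, FOSL1 (0.83), a subunit of AP-1, and IER3 (0.81) rose as well, with adjusted p between 0.00183 and 0.0129. EGR1 and FOS went the other way, by −1.95 (SE 0.34, adjusted p = 0.00596) and −1.37 (SE 0.28, adjusted p = 0.0120). EGR1 was at 115, 90.1 and 94.4 CPM in siControl and at 33.1, 33.6 and 10.4 CPM in siDAB2IP. When limma was run on log2(FPKM + 1) without a filter on low values, 3 of the list rose and 0 fell, so EGR1 and FOS did not pass there. With 1 library left out, 5 to 7 rose and 2 fell. Many of the named list genes overlap a tested gene on the other strand (EPHA2, CCND1, BRAF, MAP2K1, CBL, LRIG1, PTPN1 and HGS), where reads cannot be assigned without the strand setting. Among these, the overlapping gene had more counts than the list gene for BRAF (5041 against 2070) and CBL (6162 against 4731). For EPHA2 it had 90 against 50475.

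**Figure D4:**
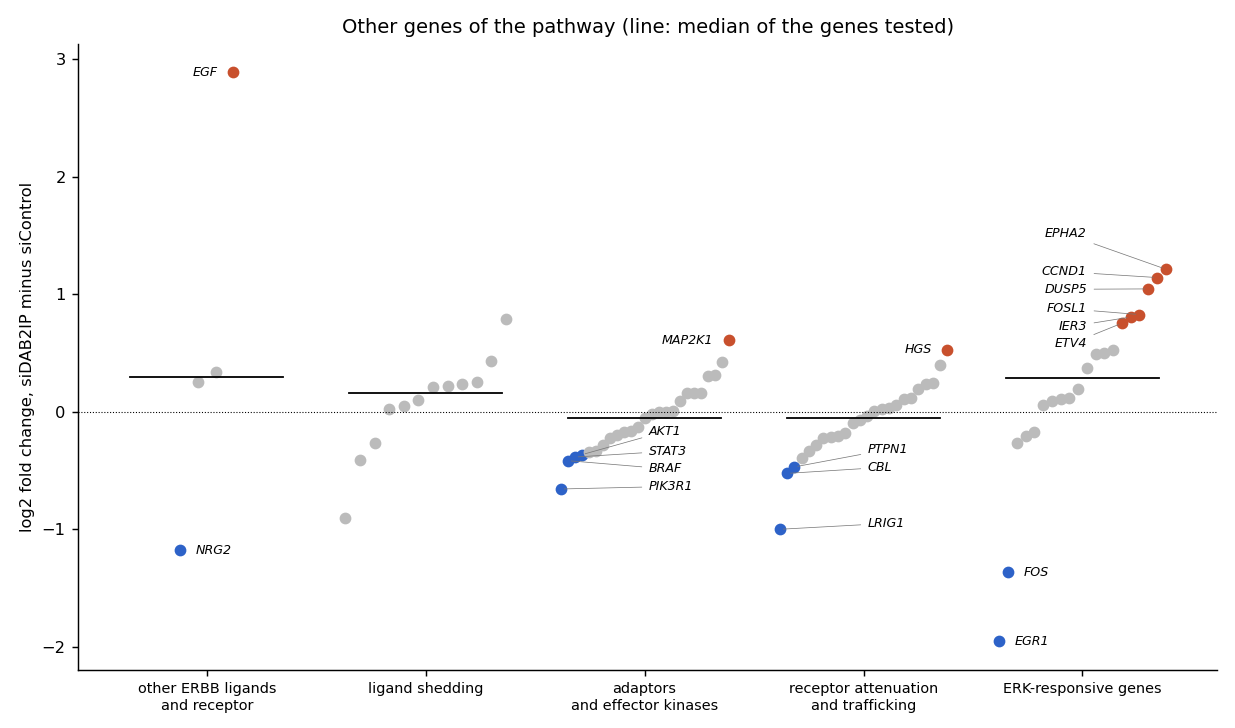
Log2 fold change, siDAB2IP minus siControl (y axis), of every tested gene in 5 pathway lists, sorted within each list. Red points rose, blue points fell (adjusted p under 0.05, edgeR), gray points did not pass, and the black line is the list's median. It is 0.30 for the 4 other ligand genes tested and 0.28 for the ERK-responsive genes. For the shedding, adaptor and attenuation lists it lies between −0.06 and 0.16.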

How the data were processed

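The data were RNA-Seq counts and FPKM of MCF10A cells, with 3 libraries in each of 2 groups. Groups and replicate numbers come from GEO's labels. The authors deposited whole-number counts per gene, without normalization, and FPKM values, which they derived from the counts, gene length and library size. The submitters' processing notes name hg38, STAR 2.6.1d, featureCounts 1.5.0-p3, DESeq2 1.20.0 and edgeR 3.24.3. Gene coordinates of all 58735 genes match GENCODE on GRCh38.

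The test of the counts was made with edgeR 4.0.16 under R 4.3.3 (default filterByExpr, TMM, glmQLFit, glmQLFTest, Benjamini-Hochberg over 15430 genes, threshold 0.05). SEs were derived from the F statistic. A count of 3, the limit that a count of 0 allows, equals 0.137 to 0.183 CPM (counting error only). DESeq2 1.42.0, limma 3.58.1 on log2(FPKM + 1) and log2(FPKM + 0.1), other scalings and filters, and leaving out each library were alternatives. On counts simulated for siDAB2IP against siControl over 15430 genes, edgeR recovered 74 of 100 genes changed by a log2 of 1 and 99 of 100 changed by 2, with 14 false calls. Smaller changes, such as those estimated for the members, were not simulated, and the simulated libraries were drawn independently.

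Deviations from the group means correlated at r = 0.26, 0.15 and 0.25 between libraries of equal replicate number and at −0.28 to 0.02 otherwise, and equal numbers were therefore treated as pairs in a fit with the number as a block.

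Named genes are the 10 members, DAB2IP, at most the 5 called genes of smallest p per list and direction, tested genes overlapping a member, genes within the chromosome 4 cluster, and the 3 genes of most similar pattern for each called member. ADAM10, ADAM17, ERBB4, NRG1, NRG3 and NRG4 are named outside this rule, after their values were seen. The marker lists were fixed for the check, and the markers singled out in the text were picked by their values. Members and lists were chosen with earlier results of these data known. Promoter windows (250 bases before to 50 after a start) are from RefSeq.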

Additional observations from a re-analysis of the deposited data

How the results depend on the processing

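TGFA was past the threshold in 7 of 15 alternatives, ERRFI1 in 13, EREG in 3, EPGN in 2, ERBB3 in 1 and the other 5 members in none, whereas DAB2IP passed in 15 of 15 (log2 fold change −1.99 to −1.55). The number of members that rose (1) was 0 with limma on log2(FPKM + 1), on log2(FPKM + 0.1) and over all genes with a count, and 0 at an adjusted p under 0.01. The number that fell (1) was 2 with DESeq2, 3 with no filter on low counts, and 0 with limma over all genes with a count and at an adjusted p under 0.01. With 1 library left out, between 0 and 2 members rose and between 0 and 2 fell. Of all genes, 1011 rose and 1181 fell, against 659 and 758 with limma on log2(FPKM + 0.1), 176 and 202 with limma over all genes with a count, and 264 to 1172 and 459 to 1352 with 1 library left out. The cause of these differences was not tested.

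With replicate number as a block for the pairing, 1479 genes rose and 1754 fell, 1 member rose (TGFA, adjusted p = 0.0401, edgeR) and 1 fell (ERRFI1, 0.00865). No member's call changed under the block.

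Directions turned for members near 0. With 1 library left out, the log2 fold change of EGFR ran from −0.054 to 0.12, with −0.054, −0.02 and −0.01 without siControl replicate 1, siControl replicate 2 and siDAB2IP replicate 2. That of ERBB2 ran from −0.024 to 0.083, with −0.015, −0.0086 and −0.024 without siControl replicate 1, siControl replicate 3 and siDAB2IP replicate 2. ERBB3 ran from −0.18 without siDAB2IP replicate 1 to 0.54. HBEGF ran from −0.46 to 0.28, with 0.05, 0.02 and 0.28 without siControl replicate 1, siControl replicate 2 and siDAB2IP replicate 3. BTC ran from −0.30 to 0.091, the latter without siDAB2IP replicate 3. Exact permutation tests of 3 libraries against 3 cannot go below 0.1, and BTC and EGF rest on few counts.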
